A study of Mus musculus with 12 samples.

Results

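The genes described here are 33 members of the amino acid response that the transcription factor ATF4 drives, taken by gene symbol from a raw count table of 49671 gene entries. They were measured in ImPSC-1, a mouse pancreatic stellate cell line, the fibroblast-like cell of the pancreas that makes matrix. All 33 had a row in the table, and all 33 were among the 15271 genes left by the filter on low counts. They comprise 11 stress regulators and stress outputs, 5 enzymes of serine synthesis and one-carbon metabolism, 5 enzymes of asparagine, proline and mitochondrial amino acid metabolism, and 12 cytosolic tRNA synthetases.

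The series holds 12 polyA RNA-seq libraries, 3 of each of 4 stable lines made from ImPSC-1. The first line, Kitl_OE, overexpresses Kitl, which encodes the ligand of the receptor KIT, and its control is Egfp_OE, a line overexpressing Egfp. The other pair is shKitl, in which a short hairpin RNA (described as sh2KitL) targets Kitl, and its control shCtrl, described as PLKO-1 and with its genotype given as wild type. All 4 lines grew in the same medium with serum and pyruvate, and no group received a drug or an amino acid starvation. Each group is 1 stable line and the labels do not say whether it is a clone, so an effect of the transgene or hairpin and a difference between lines cannot be told apart. Whether the 3 libraries of a line are separate cultures is not said either, and the p-values measure the spread between these libraries only. The library descriptions carry a P number of unstated meaning, 18, 19 and 20 in Kitl_OE, 17, 18 and 19 in Egfp_OE, 13, 14 and 15 in shKitl and 14, 15 and 16 in shCtrl.

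Amino acid shortage, unfolded protein, viral RNA or haem shortage each activate a kinase that phosphorylates the translation factor eIF2. Phosphorylated eIF2 lowers protein synthesis in general while ribosomes reach the ATF4 coding sequence more often, so that ATF4 protein depends on translation as well as on Atf4 mRNA. ATF4 binds DNA together with C/EBP proteins at C/EBP-ATF response elements, and its targets make, import and charge amino acids onto tRNA, or, with lasting stress, limit growth and promote cell death.

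The libraries held 24979742 to 33517686 counts in genes, and values below are CPM (counts scaled to a common library size) after TMM scaling unless another unit is named. Kitl itself had 125, 114 and 128 CPM in Kitl_OE, against 72.5, 31.8 and 72.3 CPM in Egfp_OE (log2 fold change 1.06, SE 0.25, edgeR adjusted p = 0.00836). In the hairpin pair Kitl had 25.1, 25.5 and 30.3 CPM in shKitl, against 73.5, 73.6 and 76.4 CPM in shCtrl (log2 fold change -1.46, SE 0.26, edgeR adjusted p = 0.121). The groups did not overlap in either pair, and an exact two-sided permutation test of 3 against 3 libraries gave p = 0.1 for each pair, the smallest it can give. The control lines did not overlap either: Kitl was lower in every Egfp_OE library than in every shCtrl library, with p = 0.1 in the same permutation test. The Egfp_OE libraries at 72.5 and 72.3 CPM were close to the lowest shCtrl library at 73.5 CPM. Without the Egfp_OE library at 31.8 CPM the log2 fold change of Kitl between the controls was -0.04 (edgeR adjusted p = 0.872). None of 26 alternatives called Kitl in this comparison. Stellate and fibroblast markers were present in every library, with 7 of 7 genes above 0 and a summed level of 20680 to 24020 CPM in Kitl_OE, 4786 to 6304 in Egfp_OE, 7405 to 17940 in shKitl and 5410 to 7006 in shCtrl. Of these 7 genes 4 were called higher in Kitl_OE against Egfp_OE. Markers of mesothelium, 3 genes that were above 0 in every library, summed to 141 to 239 CPM in Kitl_OE and 9.83 to 18.4 CPM in Egfp_OE, and to 99.6 to 132 CPM in shKitl and 62.3 to 98.8 CPM in shCtrl. In the hairpin pair the groups overlapped for both of the 2 genes tested. Msln had raw counts of 1727, 2774 and 2624 in shKitl, against 1828, 2270 and 2308 in shCtrl. Upk3b had 1118, 840 and 38 in shKitl, against 60, 2 and 23 in shCtrl. Epithelial markers summed to 1.72 to 11.6 CPM, endothelial markers to at most 0.89 CPM and blood markers to at most 3.36 CPM, and some of these genes were at 0 in several libraries. The part of these marker levels in the results was not tested.

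The library labelled Egfp_OE replicate 2 stood apart from the other libraries of its group. Its Kitl level was 31.8 CPM, below the 72.5 and 72.3 CPM of the other Egfp_OE libraries and next to the 25.1 to 30.3 CPM of shKitl. ERCC spike-in RNA took 1.35% of its counts, against 0.4462% to 0.6845% in the other 11 libraries. The summed level of 20 interferon response genes, all above 0 in every library, was 5685 CPM in it, against 1614 and 488.6 CPM in the other Egfp_OE libraries. Short genes read higher in it and long genes lower: the median log2 ratio to the other Egfp_OE libraries ran over 5 classes of rising exon length as 0.59, 0.29, -0.02, -0.27 and -0.58. Its Kitl level was unlike that of its group. Its summed mesothelium markers, at 18.4 CPM, were near the 13.6 and 9.83 CPM of the other Egfp_OE libraries, against 99.6 to 132.5 CPM in shKitl. Whether the label is right was not tested. If it is wrong, every Egfp_OE mean and fold change given with all libraries is affected, so counts of calls, and the members that moved most, are also given without this library.

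Of the 33 members, 29 had a promoter in the RefSeq promoter table (GRCm38.p6, 250 bases before to 50 after the start site), and Wars, Nars, Cars and Lars were not matched. The core of the C/EBP-ATF response element, TGATGNAA or its reverse complement TTNCATCA on either strand, occurred in 12 of these 29 promoters (41.4%), against 1219 of 27025 genes (4.51%) in the whole table. The form TGATGCAA, which is included in that count, occurred in 8 of 29 (27.6%) against 279 of 27025 genes (1.03%). By role the core was found in 4 of 11 regulators, 0 of 5 serine and one-carbon genes, 3 of 5 asparagine, proline and mitochondrial genes and 5 of 8 synthetases. The promoters that held it were those of Aars, Asns, Atf3, Chac1, Gars, Iars, Nupr1, Pck2, Pycr1, Tars, Trib3 and Yars. The windows shown are the 5 whose bases lie before the start site and in no GENCODE M21 exon, since they show what the shared element looks like in genes of 3 roles. They are written 5′ to 3′ on the gene's strand with the element in capitals.
Chac1: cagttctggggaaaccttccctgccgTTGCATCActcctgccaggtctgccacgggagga
Atf3: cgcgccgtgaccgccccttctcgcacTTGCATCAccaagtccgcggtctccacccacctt
Gars: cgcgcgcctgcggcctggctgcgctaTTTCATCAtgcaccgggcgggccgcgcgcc
Pck2: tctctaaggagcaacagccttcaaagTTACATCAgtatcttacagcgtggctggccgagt
Pycr1: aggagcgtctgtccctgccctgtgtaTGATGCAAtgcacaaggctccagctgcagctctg
In GRCm38 these windows are chr2:119351023-119351082, plus strand for Chac1, chr1:191183410-191183469, minus strand for Atf3, chr6:55037945-55038000, plus strand for Gars, chr14:55540137-55540196, plus strand for Pck2 and chr11:120643818-120643877, minus strand for Pycr1. The element begins 193 bases before the start site in Chac1, 110 in Atf3, 30 in Gars and 103 in both Pck2 and Pycr1. A match is a description of the letters and not a measured binding site.

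The first comparison asks what raised Kitl does to these genes in the same cell line. In Kitl_OE 8 members rose and 1 fell relative to Egfp_OE, and 24 did not pass an adjusted p of 0.05. The genes that rose were the stress outputs Chac1, Trib3 and Atf3 and the tRNA synthetases Aars, Gars, Wars, Nars and Mars, and the gene that fell was Stc2. In bulk RNA, fewer cells that express a gene and less RNA per cell cannot be told apart. The shares were 24.2% higher and 3.03% lower among the members, beside 15.4% higher and 18.9% lower among all 15271 genes tested, and 36.4% of the members had an unadjusted p under 0.05, beside 44.8% of all genes. The median log2 fold change was 0.22 over the members and -0.07 over all genes. The 3 libraries of each group did not overlap for 14 members that were higher (42.4%) and 2 that were lower (6.06%), beside 24.9% and 25.6% of all genes.

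**Figure D1:**
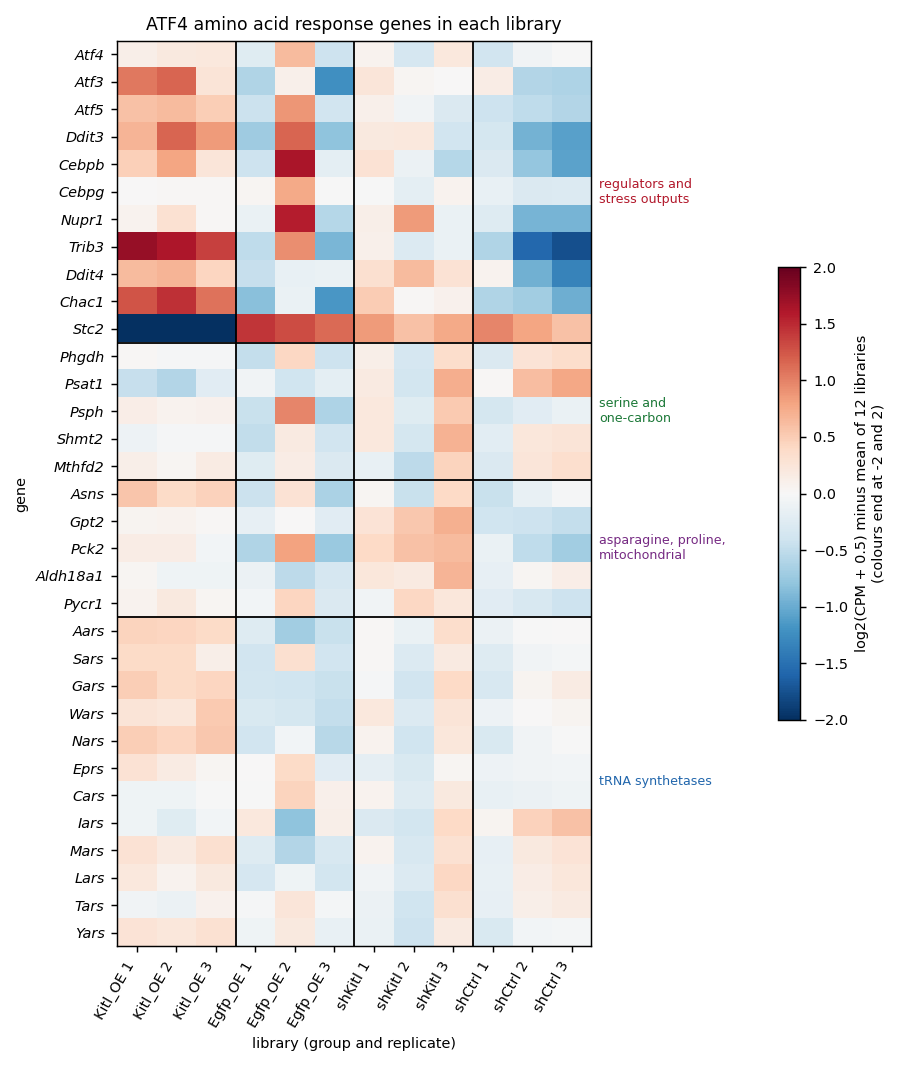
Heat map of log2(CPM + 0.5) minus the gene's mean over 12 libraries for the 33 members (rows, by role) in each library (columns, by group and replicate), with red above and blue below the mean and colours ending at -2 and 2. Chac1 and Trib3 are red in all 3 Kitl_OE libraries, Stc2 is blue there, and the library labelled Egfp_OE replicate 2 is redder than the other Egfp_OE libraries for most regulators.

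Among the 11 regulators and stress outputs, 3 rose, 1 fell and 7 did not pass the test. Chac1, a glutathione-degrading enzyme that ATF4 induces, lies at chr2:119351229-119354381 (GRCm38, plus strand) and had 100.4, 116 and 89.8 CPM in Kitl_OE, against 23.1, 38.0 and 18.4 CPM in Egfp_OE. The lowest Kitl_OE library stood above the highest Egfp_OE library. With all libraries Chac1 rose by the largest amount of the 33 members (log2 fold change 1.95, SE 0.26, edgeR adjusted p = 0.000254). The library labelled Egfp_OE replicate 2 was the highest of its group, and without it Chac1 and Trib3 were both at 2.31. The mean of Chac1 was 102 ± 13.3 CPM in Kitl_OE and 26.5 ± 10.2 CPM in Egfp_OE (SD, n = 3 each).

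Trib3, a pseudokinase that restrains ATF4 and AKT signalling, lies at chr2:152337422-152344032 (minus strand) and had 147, 135 and 114 CPM in Kitl_OE, against 30.8, 84.5 and 23.0 CPM in Egfp_OE. Every Kitl_OE library was above every Egfp_OE library, and the library labelled Egfp_OE replicate 2 was above the rest of its group. Trib3 rose (log2 fold change 1.52, SE 0.44, edgeR adjusted p = 0.0195), but the call was lost under 6 of 27 alternatives, among them leaving out Egfp_OE replicate 1 (adjusted p = 0.0639), Egfp_OE replicate 3 (adjusted p = 0.0549) or Kitl_OE replicate 1 (adjusted p = 0.0543). Without the library labelled Egfp_OE replicate 2 the log2 fold change was 2.31 (adjusted p = 0.000562).

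Atf3, a stress-induced partner and target of ATF4, had 26.1, 28.3 and 14.8 CPM in Kitl_OE, against 7.99, 13.3 and 4.97 CPM in Egfp_OE. The third Kitl_OE library was lower than the other two and still above all Egfp_OE libraries. Atf3 rose (log2 fold change 1.40, SE 0.36, edgeR adjusted p = 0.0121).

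Stc2, a secreted glycoprotein known as an ATF4 target, was lower and lies at chr11:31357307-31370074 (minus strand). It had 0.467, 0.110 and 0.205 CPM in Kitl_OE, against 13.5, 12.4 and 10.9 CPM in Egfp_OE. All 3 Kitl_OE libraries were close to 0, with raw counts of 12, 3 and 6, while the Egfp_OE libraries held raw counts of 472, 310 and 326. Stc2 fell (log2 fold change -5.55, SE 0.39, edgeR adjusted p = 5.07e-06), and because so few reads remained in Kitl_OE the size of the fold change depends on the prior count of the fit.

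Atf4 itself did not pass the test in all libraries. It had 386, 408 and 414 CPM in Kitl_OE, against 301, 555 and 269 CPM in Egfp_OE, so that the highest of the 6 values was the library labelled Egfp_OE replicate 2 and the next 3 were Kitl_OE (log2 fold change 0.10, SE 0.26, edgeR adjusted p = 0.784). Without that library the log2 fold change of Atf4 was 0.51 (adjusted p = 0.0482).

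Ddit4, an inhibitor of mTORC1, had 94.8, 97.6 and 82.2 CPM in Kitl_OE, against 44.4, 55.3 and 55.6 CPM in Egfp_OE. The groups did not overlap, and Ddit4 missed the threshold by a small margin (log2 fold change 0.82, SE 0.30, edgeR adjusted p = 0.0503). It passed under 10 of 27 alternatives, among them DESeq2 (adjusted p = 0.0267).

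Ddit3, which encodes the pro-apoptotic factor CHOP, had 180.0, 250.1 and 202 CPM in Kitl_OE, against 68.3, 251 and 63.8 CPM in Egfp_OE. Here the library labelled Egfp_OE replicate 2 was as high as the highest Kitl_OE library and the other Egfp_OE libraries were below all 3 (log2 fold change 0.72, SE 0.45, edgeR adjusted p = 0.24). Atf5, a transcription factor of the same family as ATF4, had 510.2, 531 and 477 CPM in Kitl_OE, against 253, 625 and 261 CPM in Egfp_OE, and the library labelled Egfp_OE replicate 2 was again the highest of the 6 (log2 fold change 0.41, SE 0.30, edgeR adjusted p = 0.303).

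The remaining regulators did not pass, and their direction rests on the library labelled Egfp_OE replicate 2. Cebpb, a C/EBP partner of ATF4, had 112, 139 and 95.2 CPM in Kitl_OE, against 59.97, 249.7 and 69.8 CPM in Egfp_OE (log2 fold change -0.13, SE 0.47, edgeR adjusted p = 0.852). Nupr1, a small stress-induced chromatin protein first described in pancreas, had 57.4, 68.1 and 55.7 CPM in Kitl_OE, against 49.7, 163 and 36.7 CPM in Egfp_OE (log2 fold change -0.46, SE 0.47, edgeR adjusted p = 0.482). Cebpg, the C/EBP member that pairs with ATF4 to activate amino acid genes, had 69.4, 70.2 and 70.0 CPM in Kitl_OE, against 71.0, 117 and 68.5 CPM in Egfp_OE (log2 fold change -0.29, SE 0.19, edgeR adjusted p = 0.272). In all 3 genes that library was the highest of the 12. Without it the log2 fold change was above 0 in each, at 0.84 for Cebpb (adjusted p = 0.0350), 0.50 for Nupr1 (adjusted p = 0.192) and 0.02 for Cebpg (adjusted p = 0.923).

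**Figure D2:**
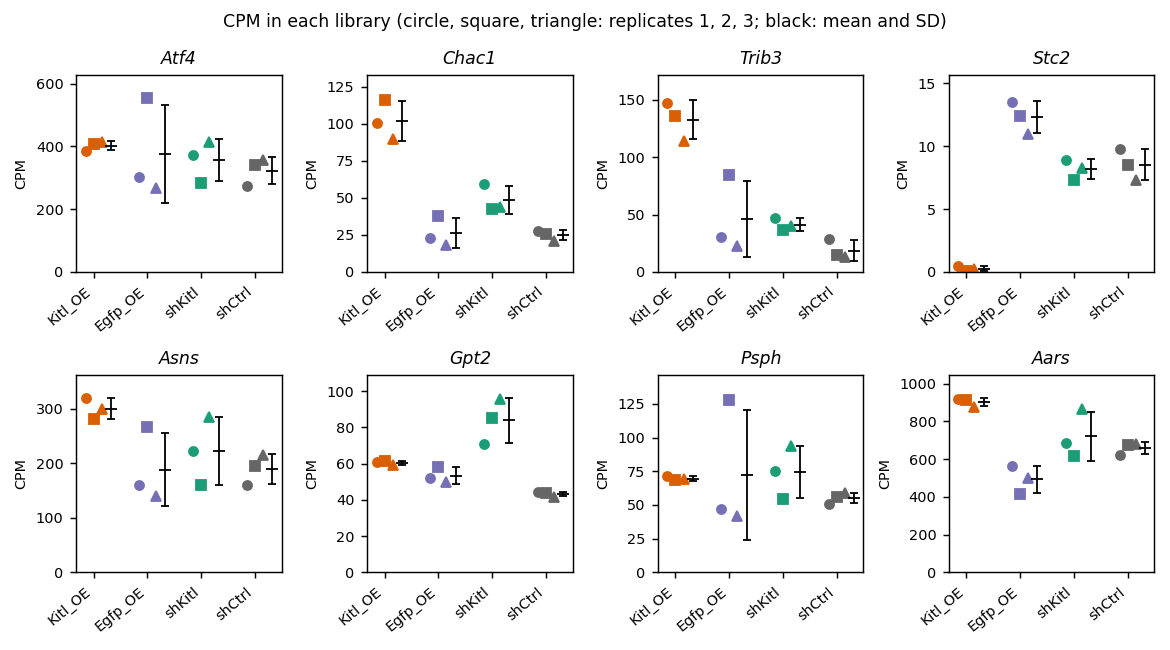
CPM in each library for 8 members, by group (x axis), with circle, square and triangle for replicates 1, 2 and 3 and black bars for the mean and SD of 3 libraries. Stc2 is near 0 in all Kitl_OE libraries, Gpt2 is highest in shKitl at 70.6 to 95.5 CPM, and the square of Egfp_OE stands above its group for Atf4, Chac1, Trib3, Asns, Gpt2 and Psph.

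Of the 12 cytosolic synthetases, which charge tRNAs with their amino acids, 5 rose, none fell and 7 did not pass. Aars, the alanyl-tRNA synthetase at chr8:111033144-111057664 (plus strand), had 919, 914 and 877 CPM in Kitl_OE, against 563, 417 and 498 CPM in Egfp_OE (log2 fold change 0.87, SE 0.17, edgeR adjusted p = 0.00253). Gars, the glycyl-tRNA synthetase at chr6:55038007-55079500 (plus strand), had 547, 507 and 527 CPM in Kitl_OE, against 301, 297 and 286 CPM in Egfp_OE (log2 fold change 0.84, SE 0.20, edgeR adjusted p = 0.00784). Wars, the tryptophanyl-tRNA synthetase at chr12:108860030-108894174 (minus strand), had 129, 126 and 155 CPM in Kitl_OE, against 87.6, 84.3 and 77.8 CPM in Egfp_OE (log2 fold change 0.72, SE 0.16, edgeR adjusted p = 0.00614). In each of these 3 genes the Kitl_OE libraries lay close together and all were above Egfp_OE, and the library labelled Egfp_OE replicate 2 was not the highest of its group.

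Nars, the asparaginyl-tRNA synthetase, had 887, 849 and 918 CPM in Kitl_OE, against 484, 603 and 430.1 CPM in Egfp_OE (log2 fold change 0.81, SE 0.19, edgeR adjusted p = 0.00826). Mars, the methionyl-tRNA synthetase at chr10:127296221-127311786 (minus strand), had 217, 202 and 224 CPM in Kitl_OE, against 149, 119 and 143 CPM in Egfp_OE (log2 fold change 0.64, SE 0.18, edgeR adjusted p = 0.0188). Both rose with no overlap of the groups, but the Mars call was lost under 6 of 27 alternatives, among them leaving out Kitl_OE replicate 1 (adjusted p = 0.0666) or Kitl_OE replicate 3 (adjusted p = 0.0648). All 5 synthetase calls were lost when libraries were scaled by spike-in totals (adjusted p = 0.0975 to 0.366), with log2 fold changes of 0.65 to 0.94 under that scaling.

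The 7 other synthetases spanned both directions. Lars, the leucyl-tRNA synthetase, had 278, 253 and 275 CPM in Kitl_OE, against 191, 225 and 187 CPM in Egfp_OE, with no overlap of the groups (log2 fold change 0.42, SE 0.19, edgeR adjusted p = 0.108). Yars, for tyrosine, also did not overlap, at 195, 189 and 199 CPM in Kitl_OE, against 152, 186 and 145 CPM in Egfp_OE (log2 fold change 0.27, SE 0.17, edgeR adjusted p = 0.251). Cars, for cysteine, was lower in all 3 Kitl_OE libraries, at 161, 160.0 and 169 CPM in Kitl_OE, against 170.1, 233 and 183 CPM in Egfp_OE (log2 fold change -0.26, SE 0.16, edgeR adjusted p = 0.236). The groups overlapped for the synthetases of serine (Sars, log2 fold change 0.41), glutamate and proline (Eprs, 0.09), isoleucine (Iars, -0.04) and threonine (Tars, -0.10). Among them Iars had 273, 134 and 257 CPM in Egfp_OE, where the library labelled replicate 2 was the lowest.

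None of the 5 serine and one-carbon genes passed the test, none had an unadjusted p under 0.05 and DESeq2 called none. Phgdh, the first enzyme of serine synthesis, had 531, 517 and 516 CPM in Kitl_OE, against 377, 698 and 391 CPM in Egfp_OE (log2 fold change 0.09, SE 0.27, edgeR adjusted p = 0.815). Psat1, which carries out the transamination that follows, had 385, 350.3 and 448 CPM in Kitl_OE, against 502, 399 and 460.4 CPM in Egfp_OE, and its median was lower in Kitl_OE (log2 fold change -0.20, SE 0.27, edgeR adjusted p = 0.597). Psph, which releases serine in the last step, had 71.5, 68.2 and 69.2 CPM in Kitl_OE, against 47.3, 128 and 41.9 CPM in Egfp_OE (log2 fold change -0.06, SE 0.36, edgeR adjusted p = 0.921). The Kitl_OE values of Phgdh and Psph were close together, and the Egfp_OE values were split into a pair below them and the library labelled replicate 2 above them. Shmt2 and Mthfd2, which pass the carbon of serine to folate in mitochondria, had log2 fold changes of 0.15 and 0.22.

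Among the 5 asparagine, proline and mitochondrial genes, edgeR called none, 1 had an unadjusted p under 0.05 and DESeq2 called none. That gene was Asns, the asparagine synthetase and a standard ATF4 target, at chr6:7675169-7693254 (minus strand). Asns had 319, 281 and 299 CPM in Kitl_OE, against 160.1, 265 and 139 CPM in Egfp_OE, with no overlap of the groups (log2 fold change 0.67, SE 0.26, edgeR adjusted p = 0.0654). It passed under 8 of 27 alternatives, including limma-voom (adjusted p = 0.0489) and leaving out the library labelled Egfp_OE replicate 2 (adjusted p = 0.00672).

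Gpt2, the mitochondrial alanine transaminase, and Aldh18a1, the first enzyme of proline synthesis, also had no overlap, with log2 fold changes of 0.18 and 0.28. Pck2, the mitochondrial phosphoenolpyruvate carboxykinase, had 76.5, 76.3 and 66.3 CPM in Kitl_OE, against 45.3, 120.4 and 40.8 CPM in Egfp_OE (log2 fold change 0.09, SE 0.34, edgeR adjusted p = 0.867). Pycr1, which completes proline, had a log2 fold change of 0.04. In Pck2 and Pycr1 the library labelled Egfp_OE replicate 2 was above every Kitl_OE library.

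**Figure D3:**
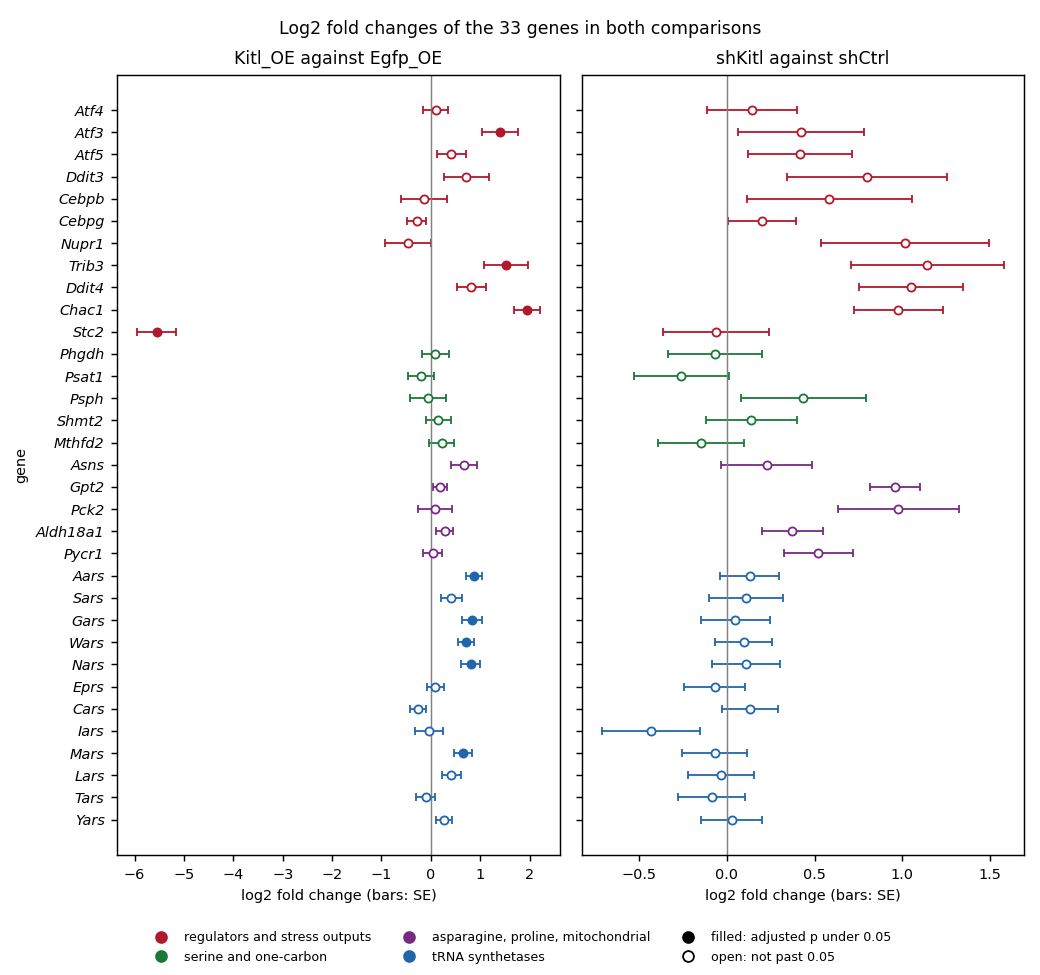
Log2 fold change of each member (x axis, bars are SE, 3 libraries a group) in Kitl_OE against Egfp_OE (left) and shKitl against shCtrl (right), with filled points past an adjusted p of 0.05. The x axes differ: Stc2 at -5.55 sets the left one, and no point on the right is filled.

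The library labelled Egfp_OE replicate 2 carried more of these transcripts than the rest of its group. It was the highest of the 3 Egfp_OE libraries for 24 of 33 members (72.7%) and the lowest for 5 (15.2%), beside 44.2% and 44.5% of all genes tested. Its median ratio to the mean of the other Egfp_OE libraries was 2.05 over the 11 regulators, 1.53 over the serine and one-carbon genes, 1.51 over the asparagine, proline and mitochondrial genes and 1.2 over the synthetases, beside 0.991 over all genes. The highest ratios were 3.85 for Cebpb, 3.80 for Ddit3, 3.77 for Nupr1, 3.14 for Trib3, 2.87 for Psph and 2.79 for Pck2. The lowest were 0.507 for Iars and 0.786 for Aars.

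Regulators are short genes, with a median exon length of 2125 bases, against 5320 bases for the synthetases, and the same library read short genes high. Beside genes of their own length class, 27 of 33 members were above the class median in that library. The median difference from the class median over all 33 members was 0.55 on the log2 scale. By role the members above were 10 of 11 regulators, 4 of 5 serine and one-carbon genes, 4 of 5 asparagine, proline and mitochondrial genes and 9 of 12 synthetases. The 20 interferon response genes were highest in this library in 20 of 20 cases, with a median ratio of 4.54, and their part in the member values was not tested.

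**Figure D4:**
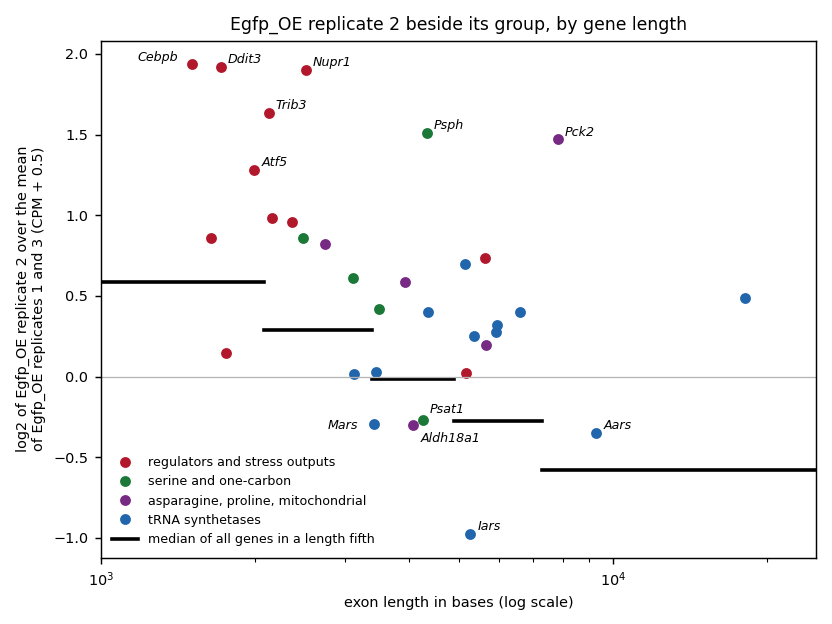
Log2 ratio of the library labelled Egfp_OE replicate 2 to the mean of Egfp_OE replicates 1 and 3 (y axis, CPM + 0.5) against exon length in bases (x axis, log scale) for the 33 members, with black lines for the median of all genes in each of 5 length classes. The black lines fall from 0.59 to -0.58, and 27 of 33 points lie above their own line.

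Without that library, Kitl_OE against Egfp_OE gave 16 members higher (48.5%) and 1 lower (3.03%), beside 19.8% and 19.6% of the 15622 genes then tested. The 8 that rose in all libraries were again among the 16, and the 8 added were Atf4, Atf5, Ddit3, Cebpb, Psph, Asns, Pck2 and Sars. Ddit3 moved to a log2 fold change of 1.69 (adjusted p = 0.000716) and Atf5 to 0.99 (adjusted p = 0.000396). Pck2 moved to 0.78 (adjusted p = 0.00478), and Psph changed sign, to 0.66 (adjusted p = 0.0264). The fold moved by more than 1.5 times for 6 members (Ddit3, Cebpb, Nupr1, Trib3, Psph and Pck2) and the sign changed for 5 (Cebpb, Cebpg, Nupr1, Psph and Tars). The other 27 members moved by -0.24 to 0.58 on the log2 scale. The median over the members was then 0.52, by role 0.89 for the regulators, 0.54 for the synthetases, 0.40 for the serine and one-carbon genes and 0.28 for the asparagine, proline and mitochondrial genes. Stc2 stayed at -5.53. These fits set 3 libraries against 2.

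**Figure D5:**
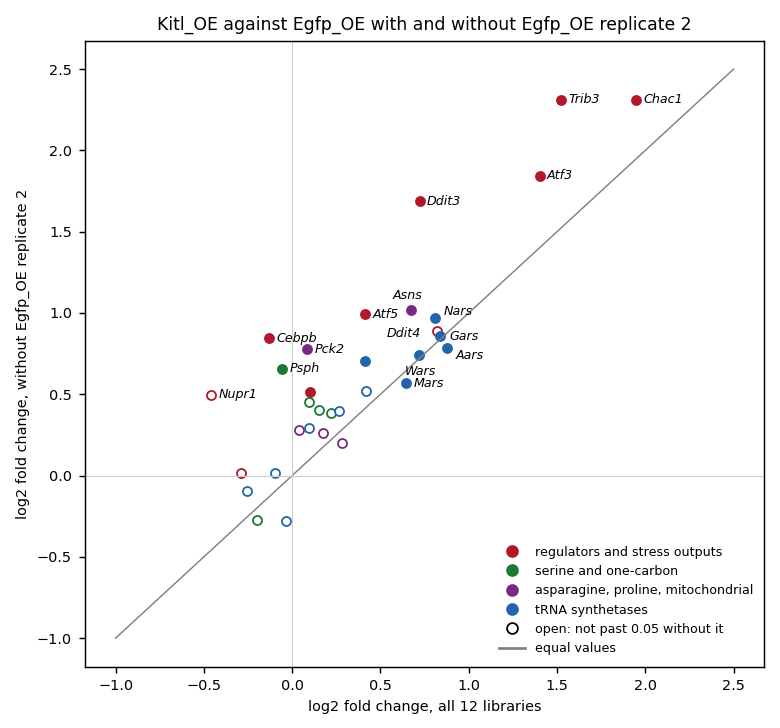
Log2 fold change in Kitl_OE against Egfp_OE with all 12 libraries (x axis) and without the library labelled Egfp_OE replicate 2 (y axis) for 32 members, filled where the adjusted p without it is under 0.05. Stc2 is off the scale at -5.55 and -5.53 and is not drawn, and most regulators lie above the line of equal values.

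The P numbers 18 and 19 occur in both lines, and the comparison can be read within each. At P number 18, where the control is the library labelled Egfp_OE replicate 2, 16 of 33 members were higher in Kitl_OE, with 4 of 11 regulators and 9 of 12 synthetases. At P number 19 it was 28 of 33, with 10 of 11 regulators and 9 of 12 synthetases. The share of all genes that were higher in the same single-library ratios was not taken, so these counts have no background beside them. Chac1 had log2 ratios of 1.40 and 2.66, Trib3 0.80 and 2.56, Aars 1.14 and 0.88, and Nupr1 -1.50 and 0.89. With only these 4 libraries fitted, 1 member was called, Stc2, and 0 were called higher, beside 623 higher and 659 lower of 14533 genes.

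Other genes around the pathway were read against the same 15.4% higher and 18.9% lower. Of 12 amino acid transporters under ATF4, 5 rose and 1 fell in Kitl_OE against Egfp_OE. The glycine transporter Slc6a9 rose, with 55.6, 51.4 and 43.2 CPM in Kitl_OE, against 19.1, 6.29 and 14.7 CPM in Egfp_OE (log2 fold change 1.90, SE 0.35, edgeR adjusted p = 0.00170). Slc7a5, a subunit of the leucine transporter, rose, with 339.9, 303 and 407 CPM in Kitl_OE, against 177, 139 and 160.2 CPM in Egfp_OE (log2 fold change 1.14, SE 0.24, edgeR adjusted p = 0.00378). Neither gene had any overlap of the groups. Slc38a1, a glutamine transporter, fell, with 11.4, 11.5 and 10.6 CPM in Kitl_OE, against 112, 58.0 and 126 CPM in Egfp_OE (log2 fold change -3.15, SE 0.28, edgeR adjusted p = 1.93e-05). Of 14 further ATF4 targets, 7 rose and 2 fell, with a median log2 fold change of 0.83. Gdf15, a stress cytokine, rose, with 138, 165 and 124 CPM in Kitl_OE, against 15.1, 36.8 and 11.2 CPM in Egfp_OE (log2 fold change 2.76, SE 0.62, edgeR adjusted p = 0.00572). Aldh1l2, a mitochondrial folate enzyme, rose, with 268, 210.3 and 209 CPM in Kitl_OE, against 93.2, 22.6 and 60.7 CPM in Egfp_OE (log2 fold change 1.96, SE 0.38, edgeR adjusted p = 0.00264). Vldlr, a lipoprotein receptor, fell, with 3.00, 3.11 and 2.63 CPM in Kitl_OE, against 17.3, 15.5 and 14.1 CPM in Egfp_OE (log2 fold change -2.42, SE 0.42, edgeR adjusted p = 0.00123).

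Charging enzymes outside the 33 were described in the same way. Of 8 other cytosolic synthetases none rose and 1 fell (Qars, for glutamine, log2 fold change -0.64, SE 0.15, edgeR adjusted p = 0.00611), with a median of -0.04. Of 16 mitochondrial synthetases none rose and 3 fell, Ears2, Pars2 and Sars2 (log2 fold changes -1.14, -0.90 and -0.60), with a median of -0.29. Among 10 genes of the eIF2 kinases, their regulators and the phosphatase, none rose and 1 fell, Eif2ak2, which encodes the double-stranded RNA kinase and is itself interferon-induced (log2 fold change -1.33, SE 0.42, edgeR adjusted p = 0.0291). Of 16 ER chaperones 1 rose and 3 fell. The summed interferon response was 349.7, 526.4 and 287.1 CPM in Kitl_OE, against 1614, 5685 and 488.6 CPM in Egfp_OE, with 16 of 20 genes called lower, and its part in the results above was not tested. Without the library labelled Egfp_OE replicate 2 the counts were 5 higher and 1 lower for the transporters, 8 and 2 for the further targets, 0 and 1 for the other cytosolic synthetases, 0 and 3 for the mitochondrial synthetases, 1 and 2 for the kinase group, 2 and 4 for the chaperones and 0 and 12 for the interferon genes.

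The second comparison asks what lowered Kitl does. In shKitl against shCtrl, edgeR called 0 of 33 members, as it called 0% of all genes higher and 0% lower, limma-voom and limma on TPM called 0, and DESeq2 called 3. At an unadjusted p under 0.05 there were 6 members (18.2%), beside 15.8% of all genes. The groups did not overlap for 9 members, all higher in shKitl (27.3%), and for 0 that were lower, beside 11% and 8.64% of all genes. These 9 were 5 of 11 regulators, Atf5, Nupr1, Trib3, Ddit4 and Chac1, and 4 of 5 asparagine, proline and mitochondrial genes, Gpt2, Pck2, Aldh18a1 and Pycr1. The median log2 fold change was 0.14 over the members and 0.05 over all genes, and by role 0.58 for the regulators, 0.52 for the asparagine, proline and mitochondrial genes, -0.07 for the serine and one-carbon genes and 0.04 for the synthetases. Scaling by spike-in totals moved the median of all genes to -0.06 and that of the members to 0.08, and called none.

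Gpt2, at chr8:85492576-85527560 (plus strand), had 70.6, 85.3 and 95.5 CPM in shKitl, against 44.3, 43.7 and 41.7 CPM in shCtrl. All 3 shKitl libraries were above all shCtrl libraries, which lay close together (log2 fold change 0.96, SE 0.14, unadjusted p = 2.46e-05, edgeR adjusted p = 0.121). DESeq2 called it (adjusted p = 3.61e-06), and so did edgeR without shCtrl replicate 1 (adjusted p = 0.0498), without shKitl replicate 3 (adjusted p = 0.0289) and without the library labelled Egfp_OE replicate 2 (adjusted p = 0.0172), which enters the shared estimate of the spread. Without that library edgeR called 3 members, all higher, beside 0.218% of all genes higher and 0.301% lower: Gpt2, Pck2 (adjusted p = 0.0352) and Chac1 (adjusted p = 0.0489).

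Chac1 had 59.4, 42.5 and 44.2 CPM in shKitl, against 27.5, 25.7 and 21.0 CPM in shCtrl, with no overlap (log2 fold change 0.98, SE 0.25, unadjusted p = 0.00242, edgeR adjusted p = 0.190; DESeq2 adjusted p = 0.0332). Ddit4 had 76.2, 95.4 and 74.4 CPM in shKitl, against 63.8, 31.1 and 23.9 CPM in shCtrl (log2 fold change 1.05, SE 0.30, unadjusted p = 0.00443, edgeR adjusted p = 0.209; DESeq2 adjusted p = 0.0460). These were, with Gpt2, the members that DESeq2 called, all higher, where it called 2.08% of all genes higher and 0.877% lower. In Ddit4 the shCtrl library labelled replicate 1 was well above the other shCtrl libraries, and without it edgeR gave a log2 fold change of 1.57 (adjusted p = 0.0498).

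Trib3 had 47.0, 36.5 and 40.2 CPM in shKitl, against 28.7, 14.5 and 12.7 CPM in shCtrl (log2 fold change 1.14, SE 0.44, unadjusted p = 0.0232, edgeR adjusted p = 0.261). Pck2 had 91.3, 104 and 107 CPM in shKitl, against 63.0, 48.1 and 42.1 CPM in shCtrl (log2 fold change 0.98, SE 0.34, unadjusted p = 0.0154, edgeR adjusted p = 0.246). Pycr1 had 23.4, 32.8 and 28.8 CPM in shKitl, against 21.1, 19.7 and 18.4 CPM in shCtrl (log2 fold change 0.52, SE 0.20, unadjusted p = 0.0217, edgeR adjusted p = 0.258). For Trib3 and Pck2 the shCtrl library labelled replicate 1 was the highest of its group, and shKitl was above it in each gene.

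Nupr1 had 59.4, 99.0 and 50.02 CPM in shKitl, against 45.8, 28.6 and 28.7 CPM in shCtrl, with no overlap (log2 fold change 1.02, SE 0.48, unadjusted p = 0.0551, edgeR adjusted p = 0.325). Atf5 and Aldh18a1, the other members without overlap, had log2 fold changes of 0.42 and 0.37. Atf4 had 373, 284 and 413 CPM in shKitl, against 274, 339 and 355 CPM in shCtrl (log2 fold change 0.14, SE 0.26, edgeR adjusted p = 0.818). The regulators Atf3, Ddit3, Cebpb and Cebpg had log2 fold changes of 0.42, 0.80, 0.58 and 0.20 with overlapping groups, and Stc2 one of -0.06. The 5 serine and one-carbon genes ranged from -0.26 (Psat1) to 0.44 (Psph), Asns was at 0.23, and the 12 synthetases ranged from -0.43 (Iars) to 0.13 (Aars and Cars).

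P numbers 14 and 15 occur in both hairpin lines. At P number 14, shKitl against shCtrl had 13 of 33 members higher, 8 of 11 regulators, 4 of 5 asparagine, proline and mitochondrial genes, 1 of 5 serine and one-carbon genes and 0 of 12 synthetases. At P number 15 it had 31 of 33 members higher, with 10 of 11 regulators and 11 of 12 synthetases. Each ratio rests on single libraries and the share of all genes was not taken. A shift of the members therefore cannot be told from a shift of the whole library. Gpt2 had log2 ratios of 0.95 and 1.13, Pck2 of 0.72 and 1.15, Chac1 of 0.62 and 0.78 and Trib3 of 0.35 and 1.47. The summed interferon response was 3353, 4903 and 4455 CPM in shKitl, against 2478, 708.5 and 286.8 CPM in shCtrl, and its part in these values was not tested.

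The 2 comparisons were set against each other by testing the difference of their log2 fold changes. For 0 members was the Kitl_OE difference higher than the shKitl difference and for 2 it was lower, beside 4.07% and 9.88% of all genes, and 9 members (27.3%) had an unadjusted p under 0.05, beside 28.9% of all genes. The 2 were Stc2, at -5.49 (SE 0.49, edgeR adjusted p = 6.17e-05), and Gpt2, at -0.78 (SE 0.20, edgeR adjusted p = 0.0246). The Gpt2 call was lost under 13 of 25 alternatives, among them leaving out any 1 of the Kitl_OE libraries, shCtrl replicate 2 or 3, or shKitl replicate 2 or 3 (adjusted p = 0.0518 to 0.0893). DESeq2, which called 7.24% of all genes higher and 12.6% lower, called 2 members higher, Chac1 and Aars, for which edgeR gave 0.97 (adjusted p = 0.0930) and 0.74 (adjusted p = 0.0600). With an offset for gene length in each library the counts were 2 higher and 2 lower, beside 6.49% and 11% of all genes. Without the library labelled Egfp_OE replicate 2 they were 4 higher, Chac1, Atf3, Atf5 and Nars, and 2 lower, Stc2 and Gpt2, beside 7.11% and 11.1% of all genes. Leaving it out moved the difference by more than 1.5 times in fold for 7 members, Atf5, Ddit3, Cebpb, Nupr1, Trib3, Psph and Pck2. The median difference over the 12 synthetases was 0.42 and over the 11 regulators -0.08, beside -0.09 over all genes. Scaling by spike-in totals moved the median of all genes to 0.10 and that of the 33 members to 0.38, against 0.06 with TMM. For Trib3 the difference was 0.38 with all libraries and 1.19 without that library (adjusted p = 0.0705), for Nupr1 -1.47 and -0.48, for Pck2 -0.89 and -0.18, and for Ddit3 -0.08 and 0.91.

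The control lines were compared with each other, a comparison that shares Egfp_OE with the first and shCtrl with the second. In Egfp_OE against shCtrl, edgeR called 0 of 33 members, beside 0.511% of all genes higher and 0.74% lower, and limma-voom and limma on TPM called 0. At an unadjusted p under 0.05 there were 9 members (27.3%), beside 24.4% of all genes. DESeq2 called 1 member, which was higher, beside 5.57% of all genes higher and 4.6% lower. The groups did not overlap for 4 members that were higher and 5 that were lower, beside 14.6% and 13.9% of all genes. The higher 4 were Cebpg, Stc2, Gpt2 and Cars, and the lower 5 were Psat1, Aars, Gars, Wars and Mars. Psat1 had 502, 399 and 460.4 CPM in Egfp_OE, against 538, 805 and 901 CPM in shCtrl (log2 fold change -0.72, SE 0.27, edgeR adjusted p = 0.144). Aars had 563, 417 and 498 CPM in Egfp_OE, against 623, 675 and 679 CPM in shCtrl (log2 fold change -0.42, SE 0.17, edgeR adjusted p = 0.166). Without shCtrl replicate 1, edgeR called 1 member, Ddit4 (log2 fold change 0.91, adjusted p = 0.0355). Of 15610 genes it then called 446 higher and 325 lower. The same Egfp_OE values are the control of the Kitl_OE comparison, where Aars, Gars, Wars and Mars were called higher.

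Trib3, the gene DESeq2 called, had 30.8, 84.5 and 23.0 CPM in Egfp_OE, against 28.7, 14.5 and 12.7 CPM in shCtrl (log2 fold change 1.30, SE 0.44, edgeR adjusted p = 0.119; DESeq2 adjusted p = 0.0397). Without the library labelled Egfp_OE replicate 2 it was at 0.53 (adjusted p = 0.349). Ddit3, Cebpb and Nupr1 were likewise at 0.96, 1.33 and 1.27 with that library and at 0.01, 0.37 and 0.33 without it, and Psph and Pck2 changed sign, from above 0 to -0.30 and -0.24. Scaling by spike-in totals moved the median of all genes in this comparison to -0.34, against 0.05 with TMM. The members' median was then -0.41, against 0.10 with TMM. The members' median with TMM was -0.24 without the library labelled Egfp_OE replicate 2.

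On the TPM scale, which divides by transcript length, the members spanned a wide range over the 12 libraries. Nars was at the top with a mean of 723 TPM (522 to 1048), followed by Phgdh at 629 TPM (458 to 833), Atf4 at 615 TPM (517 to 739.8) and Atf5 at 524 TPM (323 to 779). The ranges of these 4 overlapped, so their order is not fixed by these libraries. Shmt2, Psat1 and Gars came next, between 405 TPM (289.6 to 669) and 380.3 TPM (216 to 511). At the low end stood Pycr1 with 18.7 TPM (13.2 to 26.4), Atf3 with 18.6 TPM (7.65 to 38.4) and Stc2 with 4.19 TPM (0.0621 to 7.89). Eprs, a long transcript, ranked 26 of 33 at 66.0 TPM (55.0 to 73.8).

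The spread within a group differed by line. The median coefficient of variation over the 33 members was 5.66% in Kitl_OE, 26.3% in Egfp_OE, 20.3% in shKitl and 13.7% in shCtrl, beside 10.9%, 29.6%, 21.1% and 15.3% over all genes. In Egfp_OE it was 48.0% for the regulators and 14.1% for the synthetases. In shKitl it was 34.4% for the serine and one-carbon genes, where replicate 3 was the highest for 5 of 5 with Psat1 at 595, 409 and 872 CPM and Phgdh at 567, 415 and 671 CPM.

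Some members share exons with other genes, and the strand setting of the counting was not stated by the labels or headers. The exons of Ddit3 and Mars overlap on opposite strands on chromosome 10. On the same strand Ddit3 also overlaps another GENCODE entry of the same name, and Cebpg overlaps Gm44836. Atf5 overlaps Il4i1 and Nup62, Cebpb overlaps Tmem189, Psph overlaps Cct6a and Shmt2 overlaps Ndufa4l2, all on opposite strands, and Aars overlaps Exosc6 on the same strand. Whether reads in the stretches on opposite strands were kept apart depends on that setting. Strand does not separate Aars from Exosc6, Cebpg from Gm44836 or Ddit3 from the other entry of its name.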

How the data were processed

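RNA was taken with the RNeasy micro kit and polyA libraries were made with NEBNext Ultra II, per the labels' protocols. Reads were aligned to GRCm38/mm10 with STAR 2.5.2b and counted with featureCounts of Subread 1.5.2, per the submitters' processing notes. Neither source names the annotation release or the strand setting. The authors deposited raw counts and TPM for 49763 entries, of which 92 were spike-ins. Of the 49671 gene IDs, 49326 matched GENCODE M21, which gave positions and exon lengths.

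The counts as deposited were tested with edgeR 4.0.16 (quasi-likelihood F-test, filterByExpr, TMM, robust, 1 coefficient a group, all 12 libraries), and p-values were adjusted by Benjamini and Hochberg over 15271 genes. Every adjusted p without another tool named is from this test. The biological coefficient of variation was 0.292. All fold changes are Kitl_OE over Egfp_OE, shKitl over shCtrl or Egfp_OE over shCtrl. DESeq2 1.42.0, limma-voom (limma 3.58.1) and limma on log2(TPM + 1) and log2(TPM + 0.1), with R 4.3.3, were alternatives, as were other scalings, filters and left-out libraries. The fit was tested on simulated data before use. For Kitl_OE against Egfp_OE it recovered 25 of 100 changes of 2-fold and 87 of 100 of 4-fold. For shKitl against shCtrl it recovered 35 and 84 of 100. The calls made included 7 false ones of 119 in the first and 8 of 127 in the second. The simulation changed 200 of 15271 genes and held no library set apart from its group. In the real data 2352 genes were called higher and 2884 lower in Kitl_OE, so the adjusted threshold was reached at larger unadjusted p-values there. The recovered counts are therefore not the power of the reported Kitl_OE test. Over all genes counting error is small beside the spread between libraries at 24979742 to 33517686 counts. It need not be small for a gene with few counts, such as Stc2 with raw counts of 12, 3 and 6 in Kitl_OE.

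The members and lists were chosen with earlier results of these data known. Named genes outside the members were up to 3 a list with the largest called change. No replicate pair agreed within sampling noise.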

Additional observations from a re-analysis of the deposited data

Results flagged for a closer look

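The difference between the Kitl_OE and shKitl comparisons was flagged for 2 members because the test of the difference itself passed. For Stc2 it was -5.49 on the log2 scale: -5.55 in Kitl_OE against Egfp_OE and -0.06 in shKitl against shCtrl. For Gpt2 it was -0.78: 0.18 in Kitl_OE against Egfp_OE and 0.96 in shKitl against shCtrl. Both lines that changed Kitl had Gpt2 above their own control in 3 of 3 libraries, with a larger difference in shKitl. What sets either gene apart was not tested.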

How the results depend on the processing

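Of 3465 member values under the alternatives, 3 that were not called in the main fit changed sign and were then called, all without Egfp_OE replicate 2. No value called in the main fit changed sign. In Kitl_OE against Egfp_OE, Cebpb was then at 0.84 and Psph at 0.66, the upper ends of leave-one-out ranges of -0.46 to 0.84 and -0.33 to 0.66. In the difference of the 2 comparisons Atf5 was at 0.60, the upper end of -0.22 to 0.60. A further 209 changed sign without being called, each with a main value of at most 0.71 in size.

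For Kitl_OE against Egfp_OE, where 9 members were called and 8 were higher, spike-in scaling gave 5 and 4, an adjusted p of 0.01 gave 5 higher, the libraries with shared P numbers gave 1 and 0, and leaving out 1 library gave 7 to 17 and 6 to 16. Over all genes 2352 were called higher in the main fit, 1061 with spike-in scaling and 1258 at 0.01. The libraries with shared P numbers gave 623 higher, and leaving out 1 library gave 1654 to 3094. The gene length offset, chosen after seeing the data and made for the 99.7446% of genes with a length, gave 12 higher and 1 lower. Of the 15232 genes in that fit 2694 were called higher and 3112 lower. Kitl was at 0.95 with spike-in scaling and 1.19 with shared P numbers, no longer past the threshold, and at 0.77 to 1.24 with 1 library left out.

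For shKitl against shCtrl, DESeq2 called 3 members, all 3 higher, and leaving out 1 library gave 0 to 3. Over all genes leaving out 1 library gave 0 to 226 higher and 0 to 51 lower. Kitl passed with DESeq2 (-1.51), no filter on low counts (-1.47) and the length offset (-1.48), without Egfp_OE replicate 2 (-1.49) and without shKitl replicate 3 (-1.57), and was at -1.57 to -1.42 with 1 library left out.

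For the difference, where 2 members were called lower, spike-in scaling, no filter, an adjusted p of 0.01 and the P number as a covariate each gave 1, which was lower. DESeq2 and the length offset gave 4, with 2 higher. Limma-voom gave 1 higher and 2 lower, log2(TPM + 1) 1 higher and 1 lower, and log2(TPM + 0.1) 2 higher and 1 lower. Leaving out 1 library gave 1 to 6, with 0 to 4 higher and 1 to 2 lower. Over all genes the difference had 622 higher and 1509 lower in the main fit. There were 162 and 757 with spike-in scaling, 487 and 1304 with no filter and 130 and 688 at 0.01. The P number as a covariate gave 539 and 1002, limma-voom 668 and 1407, log2(TPM + 1) 437 and 854 and log2(TPM + 0.1) 390 and 1039. Leaving out 1 library gave 308 to 1110 and 936 to 1755 over all genes. For Egfp_OE against shCtrl, DESeq2 gave 1, which was higher, and leaving out 1 library gave 0 to 1. Over all genes leaving out 1 library gave 0 to 446 higher and 0 to 325 lower in this comparison. The causes of these shifts were not tested.

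Deviations of same-numbered libraries from their group means were unevenly correlated (r = 0.05, 0.31 and 0.25 for Kitl_OE with Egfp_OE and 0.13, -0.44 and 0.60 for shKitl with shCtrl). With 3 libraries a group these values cannot decide whether the replicate numbers pair the libraries. Pairing by P number was not examined in this check. With the replicate block the counts were 8 higher and 1 lower in Kitl_OE, 0 in shKitl, 0 higher and 2 lower for the difference and 0 between the controls, and Kitl was at 1.103 and -1.47. Over all genes the block gave 2406 higher and 2780 lower in Kitl_OE and 0 in shKitl. It gave 675 and 1443 for the difference and 32 and 50 between the controls. Differences within the spread of 3 libraries a group were not detectable at this number of libraries.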

Other observations

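In shKitl against shCtrl no gene of the other lists was called, as none was among all genes. Of 14 further ATF4 targets 5 were higher with no overlap of the groups and 7 had an unadjusted p under 0.05, with a median log2 fold change of 0.56. Of 12 amino acid transporters 4 were higher with no overlap and 3 had an unadjusted p under 0.05, with a median of 0.27. The 8 other cytosolic synthetases were all lower on the log2 scale, with a median of -0.26 and 0 with no overlap, and the 16 mitochondrial synthetases had a median of -0.03. Of 16 ER chaperones 3 were higher and 1 lower with no overlap, and of 10 genes of the eIF2 kinase group 1 was higher. Of 20 interferon response genes 16 were higher with no overlap, with a median of 1.96. Over all genes 11% were higher and 8.64% lower with no overlap. An unadjusted p under 0.05 was reached by 15.8% of all genes. Of all genes 54.4% had a log2 fold change above 0, with a median of 0.05.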
